A study of Sus scrofa with 30 samples.

Results

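The BCL2 family decides at the mitochondrion whether a cell under stress lives or dies, and it was followed here through 10 member genes in the mammary gland of sows. The members were BCL2, BCL2L1 and MCL1, whose proteins protect the mitochondrial outer membrane, BAX and BAK1, whose proteins open it, and BAD, BID, BBC3, BCL2L11 and PMAIP1, the BH3-only genes that carry stress signals to the other 2 classes. They were taken by name, with earlier results of these data known, and make up 10 of the 26019 genes and assembled loci of the deposited table. The table lists 26 reference transcripts of these genes among its 61773 transcripts, and a gene's level is the sum of its reference transcripts.

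In a healthy cell the protective proteins hold BAX, BAK1 and the BH3-only proteins in check. When BH3-only proteins prevail, BAX and BAK1 form pores, cytochrome c leaves the mitochondrion, and caspases are switched on. The balance is of interest in the mammary gland because the secretory epithelium is kept alive through lactation and is cleared in large part by programmed death once milk removal stops. Much of the control acts on the proteins, by binding, phosphorylation and degradation, and is not visible in RNA.

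Mammary parenchyma from below the third left teat of multiparous, half-sib Danish Landrace × Yorkshire sows was sampled on day 70 of gestation (mid-gestation, MG), day 110 of gestation (late gestation, LG), day 2 postpartum (early lactation, EL), day 10 postpartum (peak lactation, PL), and day 2 after the piglets were weaned (W2). Each stage had 6 sows, and the labels give no other treatment or genotype. In each stage 3 of the 6 samples were near-identical to each other and equal to the mean of the other 3, so 3 samples per stage were counted (n = 3). The stage tags of the samples titled EL and MG are exchanged in the records, and the titles were followed. Milk protein genes took 6.40% to 12.1% of the units in the samples titled EL and 1.19% to 2.95% in those titled MG.

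The values are on a TPM scale, here called units, and compare levels between genes per length. Because the total of a sample is fixed, a larger share of milk protein RNA leaves a smaller share for the other genes. Milk protein genes took 9.14% to 28.5% of the units at PL and 0.579% to 0.816% at W2, and the median log2 fold change of all genes from PL to W2 was 0.68. Dividing by the units outside milk proteins left that median at 0.48. Changes are therefore given as deposited and after median ratio scaling, which brought the median to 0.093. In that scaling each sample is divided by the median ratio of 3522 genes to their geometric mean. These genes had at least 10 units in every sample. The scaling takes the typical gene among them as unchanged between stages, which was not tested. The divisor did not follow the milk protein share alone. It was 0.839 in PL sample 6, with 9.14% milk protein, and 0.932 in EL sample 6, with 10.4%. In whole tissue, fewer cells of a type and less RNA per cell cannot be told apart. All 6 listed markers of the luminal lineage, keratins, adhesion genes and the transcription factor ELF5, were above 0 in every counted sample.

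MCL1 had the highest level of the 10 genes in every counted sample, from 58.7 to 133 units. BCL2L1 and BID followed, from 16.5 to 37.3 units and from 15.3 to 31.7 units, and BAK1 ranged from 7.54 to 23.9 units. BCL2, BBC3, PMAIP1 and BAX were low, with highest values of 10.3, 6.01, 7.21 and 2.66 units. BAD and BCL2L11 were listed at 0 in 13 and 11 of the 15 counted samples. Of the 8 members above 0 in all samples, 6 had their lowest stage mean at PL, as deposited, and MCL1 had its highest there. Genes at large also stood low at PL. The median log2 fold change of all genes at PL was -0.57 against MG, -0.45 against LG and -0.22 against EL.

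**Figure D1:**
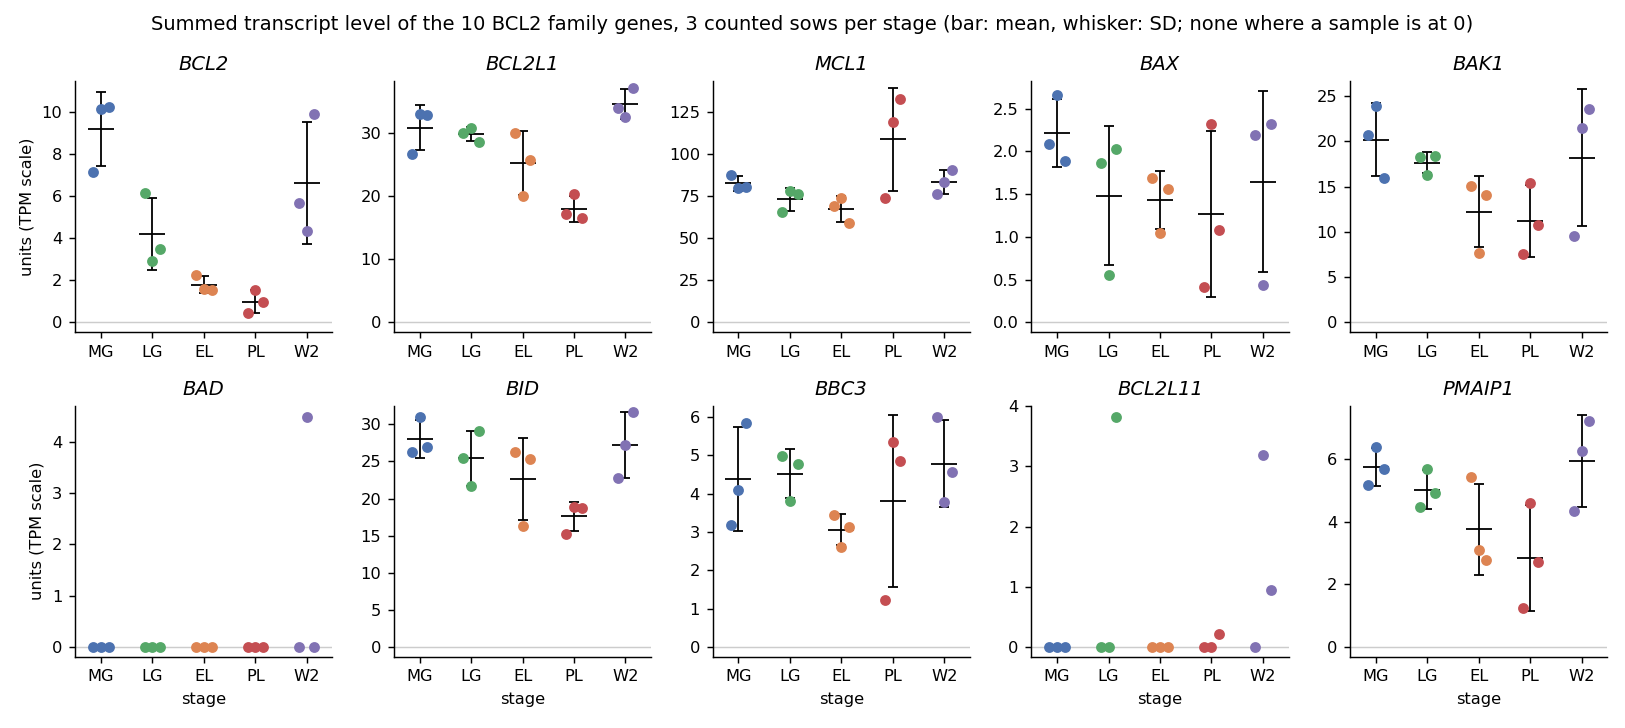
Level of each of the 10 genes in the 15 counted samples, in units on the TPM scale, by stage; each point is 1 sow, the bar the mean and the whisker the SD of 3. BCL2 falls from 9.20 units on average at MG to 0.986 at PL, MCL1 has its highest mean, 108 units, at PL, and BAD and BCL2L11 lie at 0 in most samples.

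BCL2, the founding member of the family, on chromosome 1 (chr1:158337403-158518214, build Sscrofa11.1), showed the widest change. Its level was 7.16, 10.2 and 10.3 units at MG, 6.14, 2.93 and 3.52 at LG, 2.25, 1.59 and 1.55 at EL, 0.429, 1.53 and 0.994 at PL, and 5.69, 4.35 and 9.91 at W2. The stage means ran MG, W2, LG, EL and PL from high to low. Samples of MG and W2 and of W2 and LG overlapped, whereas those of LG and EL and of EL and PL did not, although the highest PL sample lay only just under the lowest EL sample. From MG to PL the level fell by 2.76 on the log2 scale (SE 0.37, adjusted p = 0.00051), and from LG to PL by 1.67 (SE 0.37, adjusted p = 0.012). From PL to W2 it rose by 2.26 (SE 0.37, adjusted p = 0.0011).

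After median ratio scaling the BCL2 changes were -2.29 from MG to PL (adjusted p = 0.0013), -1.35 from LG to PL (adjusted p = 0.026) and 1.72 from PL to W2 (adjusted p = 0.0055). The change from LG to PL lost its call in 4 of 26 alternatives, whose adjusted p ran from 9.1e-08 to 0.51. Among these 4 was leaving out LG sample 1, the highest of that stage (-1.39, adjusted p = 0.052). The difference between MG and EL, -2.07 (SE 0.37), did not pass the test (adjusted p = 0.091), and it did without PL sample 2 (adjusted p = 0.034, and 6.0e-08 to 0.30 over the 26 alternatives). All 3 PL samples were below the other 12 as deposited, the most extreme split there is (exact permutation test, two-sided, p = 0.0022, adjusted p = 0.11 over 50 tests, the smallest value the 455 splits allow). Once scaled, the highest PL sample (1.83 units) lay within the EL samples.

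The 2 BCL2 transcripts in the table did not move alike. The predicted coding transcript XM_021099593.1 had 6.33, 9.75 and 9.55 units at MG, 5.38 in LG sample 1, and 4.61 and 9.40 in W2 samples 2 and 6. It was listed at 0 in the remaining LG samples, in W2 sample 3 and in all EL and PL samples. Its difference between MG and PL passed the test over all transcripts (adjusted p = 0.040, and 5.7e-07 to 0.16 over 24 alternatives). That call was lost in 13 of them, among them leaving out any MG, EL or PL sample or W2 sample 2. The predicted non-coding transcript XR_002346028.1 was above 0 in all 15 samples, from 0.411 to 4.35 units, and was the whole of the BCL2 sum at EL and PL. It took 7.12% of the mean BCL2 level at MG and 29.8% at W2. Between PL and W2 neither transcript passed the limma test over all transcripts. The difference was 2.55 for XM_021099593.1 (adjusted p = 0.16), with overlapping samples, and 0.48 for XR_002346028.1 (adjusted p = 0.68). The rise from PL to W2 was thus called for the gene sum only. The share of reads given to each transcript of a gene is an estimate, and a value of 0 can be a failed one.

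BCL2L1, which encodes BCL-xL and lies on chromosome 17 (chr17:35366139-35415798), varied less. It was 26.8, 33.1 and 32.9 units at MG, 30.0, 30.9 and 28.7 at LG, 30.1, 20.1 and 25.7 at EL, 17.2, 20.4 and 16.5 at PL, and 34.1, 32.5 and 37.3 at W2. The PL samples stood low, and the highest of them exceeded the lowest EL sample. As deposited it fell by 0.76 on the log2 scale from MG to PL (SE 0.17, adjusted p = 0.0074) and by 0.72 from LG to PL (adjusted p = 0.015), and it rose by 0.92 from PL to W2 (adjusted p = 0.0019). After median ratio scaling these differences were -0.11, -0.22 and 0.19, with adjusted p from 0.43 to 0.71, and the mean levels of the 5 stages lay between 24.8 and 28.6 scaled units. With the values divided by the units outside milk proteins only, the rise from PL to W2 was 0.66 (adjusted p = 0.010).

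The BCL2L1 sum was spread over 11 of its 12 reference transcripts. XM_021077299.1, XM_021077300.1 and XM_021077301.1 were each above 0 in 9 samples, all LG and EL samples among them, and were listed at 0 in all PL samples. None of the 3 passed the test between LG and PL (lowest adjusted p = 0.096). The curated transcript NM_214285.1 was above 0 in all 15 samples, from 0.237 to 2.95 units.

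MCL1, a short-lived protective protein, lies on chromosome 4 (chr4:98562092-98567014) and has 1 transcript in the table, NM_001348806.1. It was 87.6, 79.6 and 80.1 units at MG, 65.4, 77.7 and 76.2 at LG, 68.9, 74.0 and 58.7 at EL, 74.0, 119 and 133 at PL, and 76.1, 83.3 and 90.2 at W2. The highest 2 values were PL samples, and PL sample 2, in which milk proteins took 28.5% of the units, overlapped the other stages. As deposited no comparison of MCL1 passed the test: it was 0.65 (SE 0.19) higher on the log2 scale at PL than at EL (adjusted p = 0.082) and -0.34 (SE 0.19) at W2 against PL (adjusted p = 0.20).

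After median ratio scaling the PL samples had 131, 141 and 158 scaled units of MCL1, and the other 12 samples 63.0 to 88.5. On that scale MCL1 was higher at PL than at MG by 1.01 (SE 0.13, adjusted p = 0.00078), than at LG by 1.03 (adjusted p = 0.00077) and than at EL by 0.98 (adjusted p = 0.0019), and it fell by 1.08 from PL to W2 (adjusted p = 0.00044). The separation of PL from the other 12 samples was the most extreme possible (exact permutation test, two-sided, p = 0.0022, adjusted p = 0.11 over 50 tests). With the values divided by the units outside milk proteins only, the fall from PL to W2 was 0.61 (adjusted p = 0.011), and as deposited without PL sample 2 it was 0.59 (adjusted p = 0.0061). Over its 27 alternatives the W2 against PL difference was negative throughout, from -1.15 to -0.17, with adjusted p from 0.00044 to 0.50.

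Some neutrophil markers were, like MCL1, highest at PL. The summed level of the neutrophil markers S100A8, S100A9, S100A12 and CSF3R was 9.21 to 47.0 units at PL and 0.458 to 3.56 in the other 12 samples. S100A8, S100A9 and S100A12 were higher at PL than at each other stage, 3 of the 4 markers, and S100A8 was listed at 0 in 11 of the 12 samples outside PL. CSF3R, at 0.116 to 1.53 units at PL, was not. The summed macrophage markers were 19.5 to 34.8 units at PL and 61.6 to 72.5 at W2, and the fibroblast markers 243 to 642 at PL and 787 to 1246 at W2. From PL to W2, 3 of 4 macrophage, 2 of 5 lymphocyte, 4 of 5 fibroblast, 2 of 3 endothelial, 1 of 6 luminal and 0 of 4 myoepithelial markers were called higher and none lower as deposited, beside 30.4% of all genes called higher. After median ratio scaling 1 of 4 macrophage and 1 of 5 fibroblast markers were called higher, beside 7.42% of all genes. On that scale 1 of 6 luminal and 2 of 4 myoepithelial markers were called lower, beside 5.66% of all genes. Of 3 adipocyte markers, FABP4 was higher at W2 as deposited (0.81) and not called after scaling (0.063), and LEP was lower under both (-3.72 and -4.13), with 1.56, 15.8 and 14.6 units at PL. The part of these cells in the MCL1 and BCL2 changes was not tested.

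No gene-level difference of the pore-forming members passed the test as deposited. BAX (chr6:54222341-54228150) was 0.410 to 2.66 units, and its values at MG were 2.09, 2.66 and 1.89, at PL 0.410, 2.32 and 1.08, and at W2 2.19, 0.433 and 2.32. The PL and W2 samples each spread over most of the range of all stages. The W2 against PL difference was 0.27 (95% interval -0.84 to 1.38), so with 3 samples per stage a change anywhere in that interval is compatible with the values. BAK1 (chr7:29808849-29815345) was 20.7, 23.9 and 15.9 units at MG, 18.2, 16.3 and 18.4 at LG, 15.0, 7.71 and 14.0 at EL, 7.54, 15.4 and 10.7 at PL, and 9.55, 21.4 and 23.6 at W2. Its PL samples lay below those of MG and LG, with -0.85 against MG (SE 0.36, adjusted p = 0.10), which was called only with near-identical samples included. The W2 against PL difference of BAK1, 0.63 (SE 0.36), passed the test only without W2 sample 2 (1.03, adjusted p = 0.038) or with near-identical samples included, and was -0.088 after median ratio scaling. BAK1 exceeded BAX in every sample, by 4.37 to 49.5 times.

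Below the BAK1 sum, 1 transcript changed. XM_013977773.2 had 10.8, 5.85 and 5.31 units at MG and 12.4, 9.12 and 5.89 at LG, then 0, 0.953 and 7.95 at EL, and it was listed at 0 in all 6 samples of PL and W2. It took 36.3% of the mean BAK1 level at MG and 51.8% at LG. Its differences between PL and MG (adjusted p = 0.012) and between PL and LG (adjusted p = 0.013) passed the test over all transcripts, in which 4.28% and 2.26% of transcripts were called. The PL against MG call was lost only with a replicate block (adjusted p = 0.11, and 5.1e-08 to 0.11 over 24 alternatives). The PL against LG call was lost in 2 of 24 alternatives, among them without LG sample 1 (adjusted p = 0.059, and 1.6e-08 to 0.16 over the 24). Between W2 and MG, where the samples were as far apart, the adjusted p was 0.20. The main BAK1 transcript, XM_001928147.4, was above 0 in all 15 samples, from 5.87 to 22.9 units, and did not differ between stages beyond its spread (F test, adjusted p = 0.64).

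**Figure D2:**
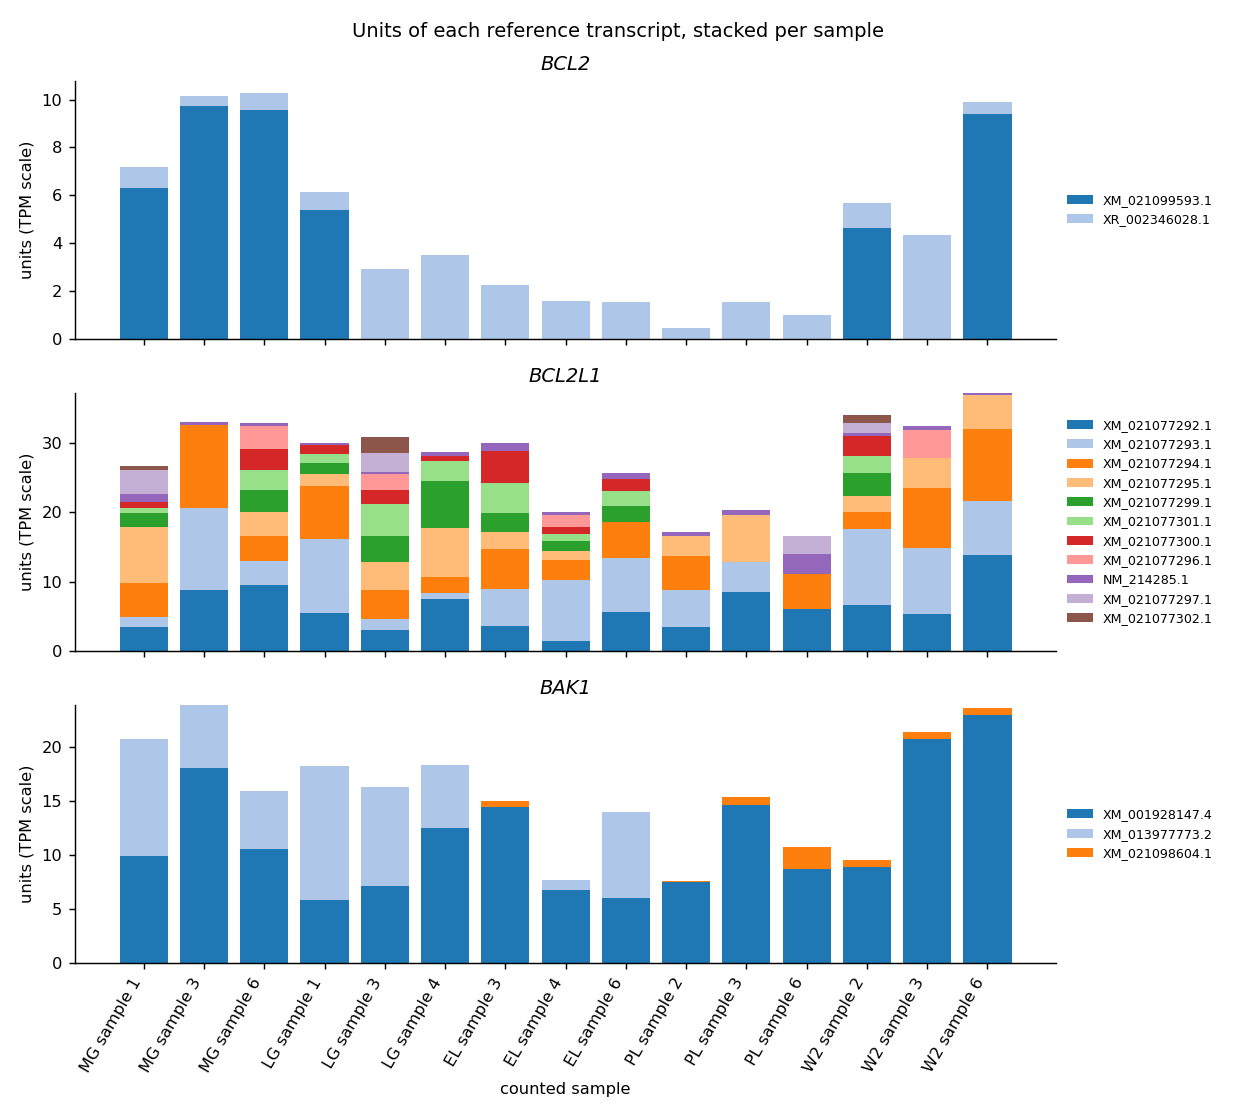
Units of each reference transcript of BCL2, BCL2L1 and BAK1 in the 15 counted samples, stacked so that a bar's height is the gene's level. The coding BCL2 transcript is missing from all EL and PL bars, and the BAK1 transcript XM_013977773.2 is seen in all MG and LG bars and in no PL or W2 bar.

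Among the BH3-only genes, BID, which links death receptors to the mitochondrion (chr5:69849007-69874647), was the highest. It was 26.3, 31.0 and 26.9 units at MG, 25.4, 21.7 and 29.1 at LG, 26.2, 16.3 and 25.3 at EL, 15.3, 18.8 and 18.7 at PL, and 22.8, 27.3 and 31.7 at W2. It fell by 0.66 from MG to PL (SE 0.21, adjusted p = 0.035) and rose by 0.61 from PL to W2 (SE 0.21, adjusted p = 0.039). After median ratio scaling these differences were -0.015 and -0.12, so the direction of the second turned. Leaving out PL sample 2 ended both calls (adjusted p = 0.088 and 0.10). Any 1 MG sample left out ended the first, and LG sample 1, W2 sample 3 or W2 sample 6 left out ended the second. Over all alternatives the adjusted p ranged from 5.9e-07 to 0.99 for the first and from 1.5e-06 to 0.93 for the second.

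PMAIP1, which encodes NOXA, a BH3-only protein that binds MCL1, was 5.19, 6.40 and 5.69 units at MG, 4.46, 5.68 and 4.93 at LG, 5.44, 3.09 and 2.77 at EL, 1.24, 4.59 and 2.71 at PL, and 4.36, 6.26 and 7.21 at W2. PL sample 2 was the lowest of all, and PL and W2 overlapped. It rose by 1.05 from PL to W2 (SE 0.36, adjusted p = 0.042), a call lost in 17 of 27 alternatives, whose adjusted p ran from 7.0e-06 to 0.80. Leaving out any MG or LG sample, EL sample 4, PL samples 2 or 6, or W2 samples 3 or 6 ended it. Without PL sample 2 the difference was 0.65 (adjusted p = 0.145), and after median ratio scaling 0.42 (adjusted p = 0.37). The difference from MG to PL, -1.03, missed the threshold (adjusted p = 0.054) and passed it in 5 of 26 alternatives. Among these were the fits without PL sample 3 (-1.40, adjusted p = 0.012) and without EL sample 3 (adjusted p = 0.047).

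BBC3, which encodes PUMA, was 3.19 to 5.85 units at MG, 2.62 to 3.43 at EL, 1.24 to 5.36 at PL and 3.78 to 6.01 at W2, with no call in any comparison and a W2 against PL difference of 0.46 (95% interval -0.41 to 1.33). BAD, which acts in its unphosphorylated form, was above 0 in W2 sample 3 (4.48 units) and at 0.000345 units in EL sample 6. BCL2L11, which encodes BIM, was above 0 in LG sample 4 (3.82 units), PL sample 6 (0.220), W2 sample 3 (3.18) and W2 sample 6 (0.945). The table holds 2 of the 12 reference transcripts of BCL2L11, 1 of 4 of BBC3, and 2 of 4 of BCL2 and of BID. Assembled transcripts with no coordinates, which took 14.6% to 21.8% of the units, were not tied to genes, so the sums can miss part of a gene's RNA.

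W2 against PL sets day 2 after weaning against day 10 postpartum. No stage between them was sampled, so later lactation and involution cannot be told apart. In this comparison 4 of the 10 genes were called higher and none lower as deposited: BCL2, BCL2L1, BID and PMAIP1. Of all genes and loci, 32.8% were called and 30.4% were called higher, so that 4 of 10 is near the background. The median log2 fold change of the 10 genes was 0.78, beside 0.68 over all genes. When a log2 fold change of 2 or more in size was also asked for, BCL2 alone was called, where 5.22% of all genes were. After median ratio scaling 2 of the 10 genes were called, BCL2 higher and MCL1 lower, beside 13.1% of all genes, and 56.7% of all calls were higher in place of 92.5%. The number called as deposited was 2 without LG sample 1, W2 sample 3 or W2 sample 6.

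**Figure D3:**
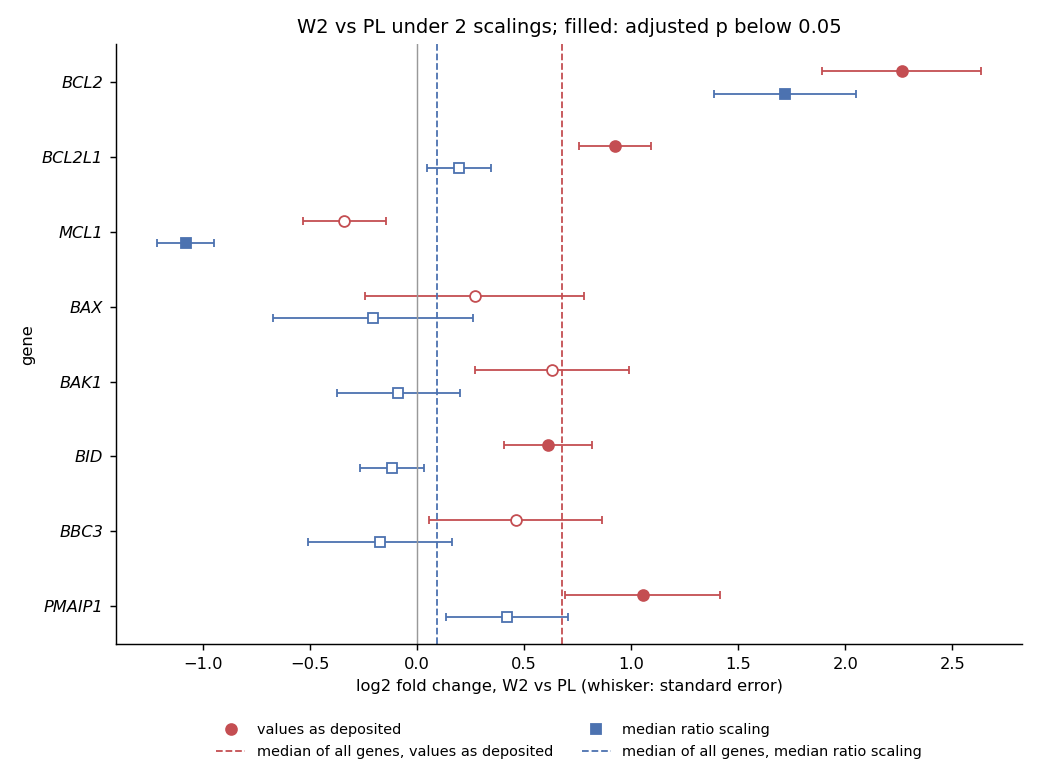
Log2 fold change from PL to W2, with its standard error, for the 8 genes above 0 in all counted samples, as deposited (circles) and after median ratio scaling (squares); filled symbols passed the test and dashed lines mark the median of all genes. BCL2 lies to the right of the median and MCL1 to the left of it under both scalings, and the other genes lie closer to it.

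From MG to PL 3 of the 10 genes were called, all lower: BCL2, BCL2L1 and BID, beside 25.2% of all genes called and 23% called lower. BCL2 alone also passed the fold limit there, beside 3.95% of all genes. BCL2 was called lower and MCL1 higher from MG to PL after median ratio scaling, beside 11% of all genes. From LG to PL BCL2 and BCL2L1 were called lower, beside 14.7% of all genes called and 13.1% called lower.

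The other 7 comparisons gave 0 calls of members by limma, with 7 member tests at an unadjusted p below 0.05 among them. Few genes of any kind were called in most of these: 0.0115% for LG against MG, 0.0269% for EL against MG, 0.0115% for W2 against MG, 0.0154% for EL against LG, 0.0346% for W2 against LG and 0.553% for W2 against EL, but 4.62% for PL against EL. An unadjusted p below 0.05 was held, in the same order, by 4.44%, 15.9%, 3.09%, 6.18%, 7.56%, 25.1% and 19% of all genes. MCL1 was called higher in PL than in EL after median ratio scaling, beside 5.25% of all genes. All 9 calls of members were in comparisons with PL. These comparisons share their PL samples, so their calls are not independent. Over all 5 stages in 1 test, BCL2 (adjusted p = 0.0020) and BCL2L1 (adjusted p = 0.014) differed, 2 of 10, where 18.3% of all genes did.

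Ratios between members within a sample do not depend on the scaling between samples. The exceptions here are the ratios to BAX, for which 0.5 was added to each gene. MCL1 took 63.1% to 70.4% of the summed units of the 10 genes at PL and 41.7% to 58.5% in the other 12 samples. MCL1 was 4.30, 5.81 and 8.03 times BCL2L1 at PL and 2.18 to 3.69 times elsewhere. Against BCL2 it was 77.2 to 173 times as high at PL and 7.80 to 46.5 times elsewhere, and against PMAIP1 25.8 to 59.8 times at PL and 12.4 to 24.0 times elsewhere. In all of these the PL samples lay outside the range of the other 12. Against BAX they did not: the log2 ratio of MCL1 to BAX was 5.40 to 6.40 at PL and 4.66 to 6.49 elsewhere. The log2 ratio of BCL2L1 to BAX also overlapped, with 2.89 to 4.28 at PL and 3.40 to 5.15 elsewhere. The shares and ratios are descriptions without a test, since the genes were chosen with earlier results known.

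The share of BCL2 was 0.365% to 0.821% at PL and 1.17% to 5.72% elsewhere. At EL and PL the BCL2 sum was the non-coding transcript alone, whereas at MG it was mostly the coding one. With 0.5 added to each, the log2 ratio of BCL2 to BAX was 1.57 to 2.17 at MG. It was close to 0 at PL, from -0.47 to 0.029, where EL and PL overlapped. At such low levels the added 0.5 weighs on the ratio. BCL2L1 and BID kept a ratio of 0.884 to 1.496 in all 15 samples. The protective genes added up to 91.7 to 150.3 units at PL and 86.0 to 137 elsewhere, so their sum overlapped while its make-up differed.

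**Figure D4:**
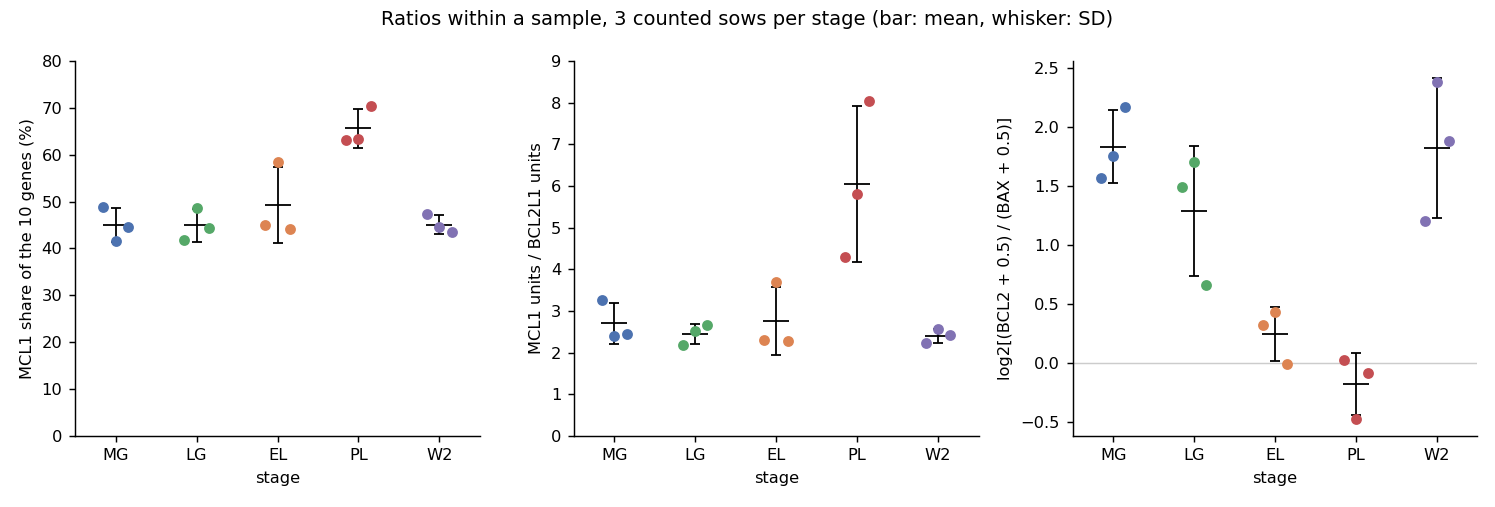
Within-sample ratios by stage for 15 counted samples (bar, mean; whisker, SD of 3): the share of MCL1 in the 10 genes in percent, MCL1 divided by BCL2L1, and the log2 ratio of BCL2 to BAX with 0.5 added to each. The 3 PL samples lie above all others in the first 2 panels, at 63.1% or more and at 4.30 or more, and around 0 in the last. BCL2 at EL and PL is the non-coding transcript alone.

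The partners of the family were followed through lists of other genes in the same comparison of W2 against PL. The counts that follow stand beside 30.4% of all genes called higher, 2.48% called lower and a median of 0.68 as deposited, and 7.42%, 5.66% and 0.093 after median ratio scaling. Of 10 genes of cytochrome c release and the apoptosome, 5 were higher and 0 lower (median 0.74, and 0.094 after scaling): the outer membrane channels VDAC1, VDAC2 and VDAC3, DIABLO, which neutralizes caspase inhibitors, and AIFM1, a flavoprotein of the inner membrane. VDAC1 had 91.9, 107 and 96.9 units at PL and 217, 260 and 301 at W2. VDAC1 (0.64, adjusted p = 0.0072) and VDAC2 (0.55, adjusted p = 0.014) stayed higher after median ratio scaling, and VDAC3 (0.33), DIABLO (0.0018) and AIFM1 (-0.070) did not. Both channels were also lower at PL than at EL, by 0.73 (VDAC1, adjusted p = 0.024) and 0.81 (VDAC2, adjusted p = 0.010).

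DFFB, a nuclease that cuts nuclear DNA in dying cells, was higher at W2 as deposited (1.04) and not called after scaling (0.42). Of 4 inhibitor of apoptosis genes, 1 was called: BIRC5, survivin, a mitotic gene as well, with 7.26, 6.55 and 7.37 units at PL and 29.0, 24.9 and 41.9 at W2 (2.07, adjusted p = 0.00012, and 1.35 after scaling). Of the 11 genes of the death receptor arm, the adaptors and kinase TRADD (1.499), FADD (0.63) and RIPK1 (0.73) were higher and the ligand TNFSF10, TRAIL, lower (-1.34, adjusted p = 0.042). TNFSF10 (-2.01) and TRADD (0.79) were also called after scaling.

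Among 11 genes of BAD kinases and the YWHA adaptors that hold phosphorylated BAD in the cytosol, 6 were higher (median 0.96, and 0.22 after scaling), and the 5 with the smallest p were YWHAQ, YWHAB, YWHAH, YWHAE and YWHAG. YWHAQ alone of the 11 stayed called after scaling (0.56, adjusted p = 0.0046). Of 8 transcription factors known to drive BH3-only genes, MYC was higher (2.14, adjusted p = 0.0019, and 1.46 after scaling, adjusted p = 0.063) and FOXO3 lower (-0.51, adjusted p = 0.040, and -1.24 after scaling). None of 5 genes of MCL1 protein turnover was called by limma, and 0 of them had an unadjusted p below 0.05. In the rest of the BCL2 family, BNIP3L (0.85) and BCL2L14 (1.40) were higher among 6 pro-death or BH3-only genes, neither of them called after scaling, and BCL2A1, a protective gene, was not called (0.67, adjusted p = 0.24).

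The genes whose pattern over the 15 samples was most like that of BCL2 were AKR1B1, GSTO1 and DDAH2, with root mean square differences of 0.39, 0.40 and 0.41 between the centred log2 values, out of 12006 genes with a mean of at least 5 units. For BCL2L11, which was listed at 0 in 11 samples, the nearest were 2 assembled loci (0.65 and 0.69) and LAMTOR4 (0.72). BCL2 and PMAIP1 lie 2.67 Mb apart on chromosome 1, and BBC3 and BAX 1.18 Mb apart on chromosome 6. Annotated genes overlap BCL2, BCL2L1, BAK1, BAD, BID and BCL2L11, mostly non-coding ones, and the library kit does not mark strand, so reads of overlapping genes cannot be told apart.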

How the data were processed

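Mammary RNA of 30 samples was given as values of 61773 transcripts. Per the labels, reads were checked with FastQC, trimmed with Trimmomatic and aligned to Sscrofa11.1 with HISAT2, and per the methods transcripts were assembled and quantified with StringTie. The authors deposited values they call FPKM, but samples sum to 997480 to 1002643, so they were treated as TPM. Whether they include the RUVs correction named in the methods is not stated. No counts per transcript were analysed, so the depth behind single values is unknown.

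Reference transcripts (32688 of 61773) were matched to RefSeq symbols and summed per gene. Samples of a stage that differed by under 5% from each other, and whose mean equalled that of the rest within 5%, were not counted (n = 3). Nothing states further technical replication. log2(units + 0.5) was fitted with limma 3.58.1 (R 4.3.3, trend), 5 stages in 1 fit, with Benjamini-Hochberg adjustment over all 26019 genes and loci, or over all transcripts. A call is an adjusted p below 0.05. Fold changes are on this scale and understate changes of low genes. Named genes were all members, the called genes of each list (the 5 with the smallest p where more than 5 were called), and for the 2 members of widest range the 3 most similar genes. BCL2A1, which was not called, was added after its values were seen. Some genes that the rule names are not reported here. Members and lists were chosen with earlier results of these data known. On simulated data with few changed genes, 55 of 100 planted changes of log2 size 2 and 10 of 100 of size 1 were called. Of 25819 unchanged genes, 5 were called. Permutation tests used Python 3.11.15 with numpy 2.4.6. Alternatives were other pseudocounts, a filter, other scalings, other sample sets, the highest transcript of each gene and a replicate block.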

Additional observations from a re-analysis of the deposited data

How the results depend on the processing

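BCL2 kept its fall from MG to PL under all 26 alternatives and its rise from PL to W2 under 26 of 27. The rise lost its call with the highest transcript of each gene (limma, adjusted p = 0.097), for BCL2 the coding XM_021099593.1. The number of members called in W2 against PL, 4 as reported, was 2 with quantile normalization, 2 with median ratio scaling, 2 with that scaling without PL sample 2 (an alternative chosen after seeing the data), 2 with the compared stages alone, 8 with all 6 samples per stage, 7 with the near-identical samples as 1 further sample and 0 with the highest transcript of each gene. Leaving out 1 sample in turn gave 2 to 5. Over all 10 comparisons, 9 as reported, the number was 50, 23, 5 and 1 with all 6 samples, the near-identical samples as 1 further sample, the replicate block and the highest transcript, and 6 to 12 with 1 sample left out. For any stage, 2 as reported, it was 9, 6 and 0 with all 6 samples, the near-identical samples as 1 further sample and the highest transcript, and 2 to 3 with 1 sample left out.

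Single differences that turned sign from PL to W2 were, with quantile normalization, median ratio scaling and that scaling without PL sample 2 in turn, BAX (-0.39, -0.21 and -0.55), BAK1 (-0.069, -0.088 and -0.16), BID (-0.070, -0.12 and -0.035) and BBC3 (-0.25, -0.17 and -0.61). With PL sample 3 or W2 sample 3 left out, BBC3 and BAX reached their highest values of 0.77 and 0.79. BAX also turned without PL sample 2 (-0.14) and without W2 sample 6 (-0.0098), BBC3 without PL sample 2 (-0.10), and the PL against LG difference of BCL2L1 with its highest transcript (0.18). The near-identical samples differed too little to be counted as further sows, and including them narrows the spread. The cause of the other changes was not tested. Same-numbered samples of different stages did not deviate together (r from -0.14 to 0.17 over 19 pairs), so numbers were not taken as pairs, and the replicate block was fitted as an alternative only, with 3 members called in W2 against PL.

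Depth per transcript is unknown. With 3 sows per stage, changes of 1 on the log2 scale were mostly uncalled in the simulation, where few genes changed. The simulation does not give the sensitivity of W2 against PL. There 32.8% of genes were called, which loosens the cutoff, and BID was called at 0.61. A comparison of 3 against 3 samples by permutation cannot go below p = 0.10.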

Other observations

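Zeros in the counted samples were not always zeros in the samples left uncounted. There were 21 cases of a member transcript listed at 0 in all 3 counted samples of a stage. In the 63 corresponding values of the near-identical samples, 27 were above 0, the highest at 0.885 units. At PL this held for 14 of 27 values, the highest at 0.769 units, and at W2 for 1 of 9. The near-identical samples equalled the mean of the counted ones, so their values are not a separate measurement. Whether a transcript listed at 0 was present cannot be read from them.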
